A study of Mus musculus with 6 samples.

Results

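The 10 genes described here are widely used markers of astrocytes: Aldh1l1, Aldoc, Gfap, S100b, Aqp4, Sox9, Fgfr3, Gja1, Gjb6 and Mlc1. They were chosen by name, as a list of markers, and all 10 were found by gene symbol among the 52550 gene identifiers counted in each of 6 RNA-seq libraries of mouse cortex. All 10 had enough reads to be tested, among 14913 tested genes. Each library was made from the polyA RNA of 1 cortical hemisphere of a C57BL6/J pup at postnatal day 2. The 3 control libraries came from Slc7a5fl/fl; Emx1Cre- pups and the 3 knockout libraries from Slc7a5fl/fl; Emx1Cre+ pups, so both groups carry floxed alleles of Slc7a5, the gene of the large neutral amino acid transporter LAT1, and the series' design text calls the controls wild type. Emx1-Cre acts in the dorsal telencephalic progenitors that give rise to cortical excitatory neurons and to cortical astrocytes, and not in the lineages of interneurons, microglia, vessels or meninges. Presence of Cre and loss of Slc7a5 cannot be told apart in this design. Each genotype has a library named A, a library named B and a library named C.

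Astrocytes are the glial cells that take up transmitters and potassium, supply neurons with metabolites and cover blood vessels with their endfeet. In the mouse cortex they are born from radial glia after most neurons, around birth, and go on dividing and maturing over the following weeks. At postnatal day 2 the tissue therefore holds young astrocytes beside radial glia, with which they share several of these genes. Sox9 and Fgfr3 are already active in radial glia, whereas Aqp4, Gjb6 and Gfap are known for increasing as astrocytes mature.

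The libraries held 8249436 to 10372582 reads assigned to genes. Levels are given as CPM, a gene's reads scaled to a common library size, on library sizes scaled by TMM. Markers of excitatory neurons, the main neurons of the labelled tissue, summed to 3769 to 4281 CPM. Slc7a5 was measured at 20.2, 40.7 and 26.1 CPM in control A, B and C, against 15.6, 9.37 and 11.4 CPM in knockout A, B and C, so that every knockout library was below every control (log2 change -1.25 ± 0.28 (SE), edgeR adjusted p = 0.400). Other cells of the hemisphere also express this gene. The libraries of letter A stood apart in both genotypes by a low level of meningeal fibroblast markers, which sum to 101 CPM in control A and 163 in knockout A, against 409 to 689 in the other 4 libraries. In the controls A, B and C, 26.5, 22.5 and 23% of mapped reads matched no annotated exon on the counted strand, against 27.4, 27.9 and 27.8% in the knockouts. Reads antisense to exons are part of this share. Every knockout library was above every control in this share, and its part in the genotype differences given here was not tested.

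None of the 10 astrocyte markers passed the test of genotype, at a Benjamini-Hochberg adjusted p under 0.05 in edgeR's quasi-likelihood test. Over all tested genes, 0.0201% were called higher and 0.0134% lower in the knockouts, so that few calls were made anywhere in this fit. With the letter as a block, 0.329% of tested genes were called higher and 0.516% lower, and again 0 of the 10 markers. DESeq2 called 0 of the 10 as well. Only Fgfr3 had an unadjusted p under 0.05 in edgeR, with and without the block. Such a p was found for 7% of all tested genes without the block and for 1774 of 14913 with it. DESeq2 gave 0 such markers among the 10. The control and knockout values overlapped for all 10 markers, whereas 6.28% of tested genes lay wholly lower and 5.89% wholly higher in the knockouts. In bulk RNA, fewer cells of a type and less RNA per cell cannot be told apart.

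The summed level of the 10 markers was 504, 564 and 571 CPM in control A, B and C, against 532, 505 and 508 CPM in knockout A, B and C. The ranges of the 2 groups overlap, and the lowest sums are a control and a knockout. By direction, 8 of the markers had a fitted log2 change below 0 and 2 (Gja1 and Gjb6) above 0, with a median of -0.098. Over all tested genes 49.8% were below 0 and the median was 0.0011. This tilt varied with single libraries. Control C gave the highest of the 6 values for 5 markers (Aldh1l1, Aldoc, S100b, Aqp4 and Mlc1), against 13.7% of all tested genes. Without control C, 5 markers were lower and 5 higher and the median was -0.013; without control A, all 10 were lower with a median of -0.19. Within letters, the median knockout-minus-control difference was 0.18 for A, -0.16 for B and -0.22 for C, with 4, 7 and 8 of the 10 markers lower.

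**Figure D1:**
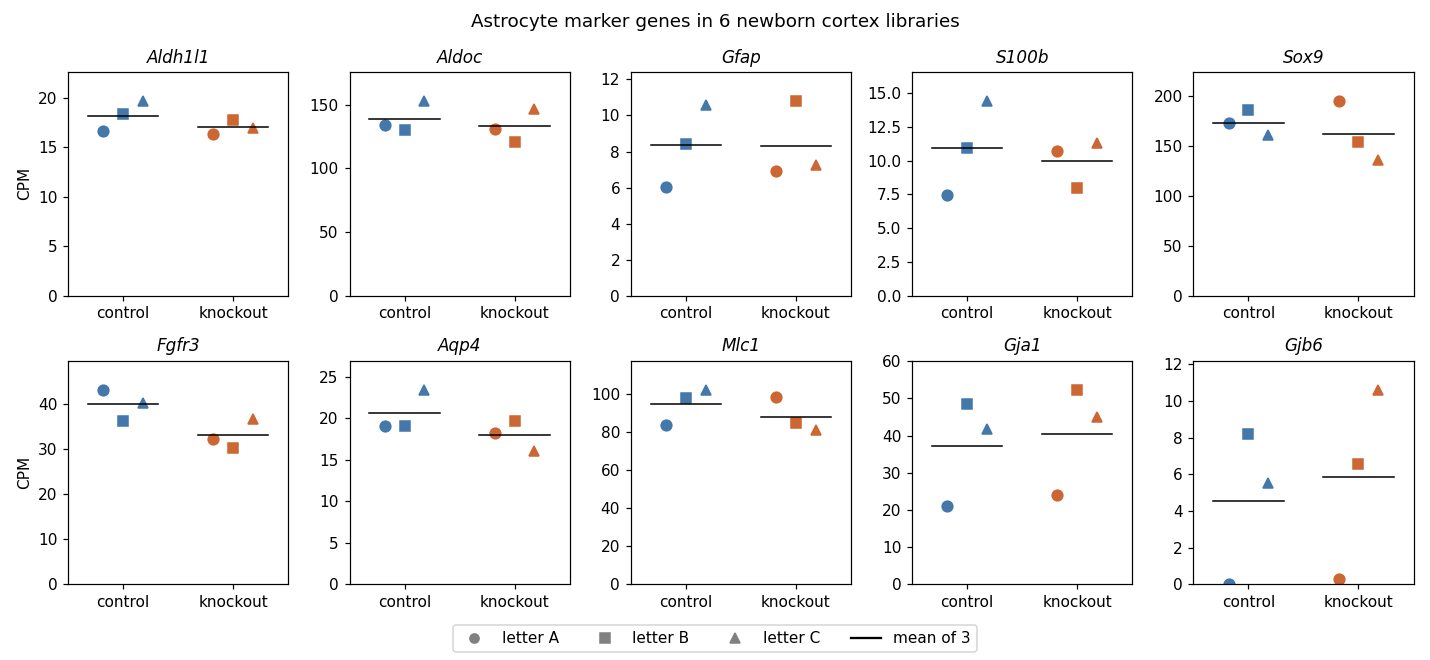
CPM of each of the 10 astrocyte markers (vertical axes, each starting at 0, with its own scale) in the 3 control and 3 knockout libraries; each point is 1 library, its shape gives the letter, and lines are group means. The 2 groups overlap in every panel, and in the panels of Gja1 and Gjb6 both letter A libraries lie below the other 4.

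**Figure D2:**
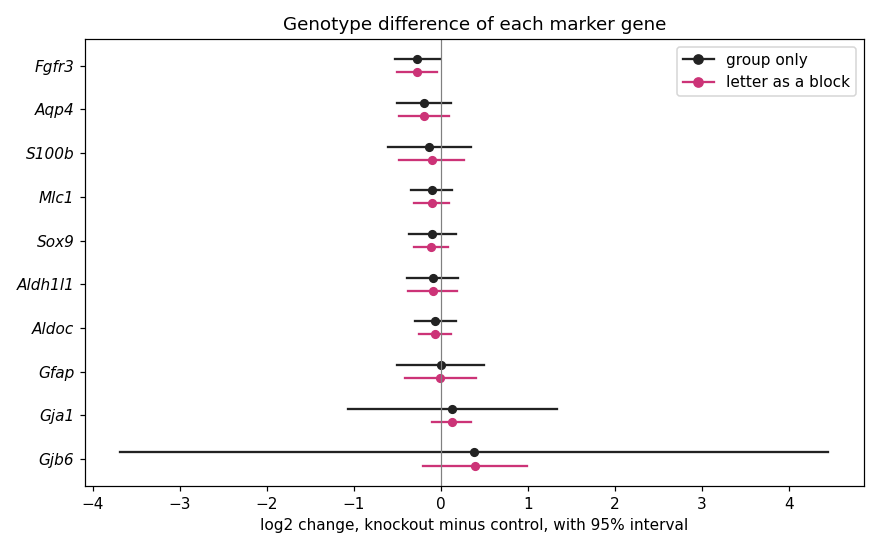
Fitted log2 change, knockout minus control, of each marker (horizontal axis) with its 95% confidence interval, from the fit of genotype alone and from the fit with the letter as a block. The intervals of Gja1 and Gjb6 are wide without the block and narrower with it, where that of Gjb6 is still the widest of all markers. Those of Fgfr3 end just below 0 in both fits.

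Aldh1l1 and Aldoc are the metabolic enzymes of the set. Aldh1l1 (ENSMUSG00000030088; GRCm38 chr6:90486427-90600203, + strand) encodes cytosolic 10-formyltetrahydrofolate dehydrogenase, which takes folate-bound one-carbon units out of circulation. It was measured at 16.7, 18.4 and 19.7 CPM in control A, B and C, against 16.4, 17.8 and 17.0 CPM in knockout A, B and C. The 6 values lie close together, the highest 1.2 times the lowest, and the groups overlap. The log2 change was -0.095 ± 0.14 (SE; 95% interval -0.39 to 0.20; adjusted p = 0.935). Its locus overlaps other gene models on the same strand, and any reads shared with their exons are not counted. Whether the exons themselves overlap was not checked. Aldh1l2, the mitochondrial enzyme of the same reaction, was at 37.4, 36.2 and 31.2 CPM in control A, B and C, against 41.9, 54.2 and 40.6 CPM in knockout A, B and C. All 3 knockout values of Aldh1l2 exceeded all 3 controls, without passing the test (log2 change 0.38 ± 0.13, adjusted p = 0.544; 0.108 with the block).

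Aldoc (ENSMUSG00000017390; chr11:78322968-78327781, + strand) encodes the brain aldolase of glycolysis and is the marker with the highest level per kilobase. It was measured at 134, 130 and 153 CPM in control A, B and C, against 131, 121 and 147 CPM in knockout A, B and C. Letter C was highest in both genotypes. The difference between groups was smaller than the spread within them, with means of 139 ± 12.1 and 133 ± 13.3 CPM (SD, n = 3) and a log2 change of -0.065 ± 0.11 (95% interval -0.30 to 0.17; adjusted p = 0.942). Aldoa, the aldolase of muscle and of most cells, had a log2 change of -0.16 ± 0.10 (adjusted p = 0.809).

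Gfap and S100b, the classical histological markers, both had few reads in these libraries. Per kilobase of exon, 69.7% of tested genes lay above Gfap, against 39.1% above S100b, so that by this measure S100b was not low. Gfap (ENSMUSG00000020932; chr11:102887336-102900912, - strand) encodes the intermediate filament of mature and reactive astrocytes. It was at 6.04, 8.43 and 10.6 CPM in control A, B and C, against 6.90, 10.8 and 7.27 CPM in knockout A, B and C. The 2 groups span the same range, and the fitted log2 change was -0.0028 ± 0.24 (95% interval -0.50 to 0.50; adjusted p = 1.0). Gfap rests on 60 to 116 reads per library, and 15.2% of tested genes spread more within groups. Vim, the filament of radial glia and young astrocytes, was at 61.3, 65.6 and 66.9 CPM in the controls, against 74.5, 94.4 and 70.2 CPM in the knockouts, in the order A, B, C. The knockouts lay above the controls for Vim (log2 change 0.30 ± 0.12, adjusted p = 0.640; 0.179 with the block), and likewise for Nes, a second filament of radial glia (0.33 ± 0.13, adjusted p = 0.635; 0.260 with the block).

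S100b (ENSMUSG00000033208; chr10:76253853-76261159, + strand) encodes a calcium-binding protein of astrocytes, ependyma and part of the oligodendrocyte lineage. It was at 7.45, 10.9 and 14.4 CPM in control A, B and C, against 10.7, 7.98 and 11.3 CPM in knockout A, B and C. Both the lowest and the highest value are controls. The log2 change was -0.13 ± 0.23 (95% interval -0.61 to 0.35; adjusted p = 0.944). S100a10, a family member that binds annexin A2 and belongs to the list of enzyme and structural relatives, was the 1 gene of the 14 tested on that list to pass any test. It was at 57.7, 63.5 and 48.8 CPM in control A, B and C, against 39.2, 42.4 and 36.2 CPM in knockout A, B and C. S100a10 fell in the fit with the block (adjusted p = 0.00525) and not in the fit without it (log2 change -0.53 ± 0.12, adjusted p = 0.233). The groups do not overlap for S100a10. Neurons express S100a10 too, and the cells it came from were not resolved.

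Sox9 (ENSMUSG00000000567; chr11:112782224-112787760, + strand) encodes the transcription factor that starts gliogenesis and stays on in astrocytes. It was at 173, 186 and 161 CPM in control A, B and C, against 195, 154 and 136 CPM in knockout A, B and C. The knockouts were more spread than the controls, holding both the highest and the lowest value (173 ± 12.7 against 162 ± 30.1 CPM; SD, n = 3). The log2 change was -0.10 ± 0.13 (95% interval -0.37 to 0.17; adjusted p = 0.922). Of 24 regulators of gliogenesis, a list that holds Sox8 and the nuclear factor I genes, 12 were higher and 12 lower, with a median of 0.003 and 0 called in either edgeR fit. Sox8, a close relative of Sox9, had a log2 change of -0.19 ± 0.14 (adjusted p = 0.849), and Sox10, the oligodendrocyte relative, which is not on that list, -0.036 ± 0.20 (adjusted p = 0.987). Nfia and Nfib, which act with Sox9 in young astrocytes, had changes of -0.05 ± 0.10 (adjusted p = 0.954) and 0.15 ± 0.098 (adjusted p = 0.824). The smallest p-values of the gliogenesis list belonged to Zbtb20, a repressor of neuronal programmes in glial progenitors (0.29 ± 0.11, adjusted p = 0.621), and to Cntfr, the ciliary neurotrophic factor receptor (-0.55 ± 0.24, adjusted p = 0.702).

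Fgfr3 (ENSMUSG00000054252; chr5:33721674-33737068, + strand) encodes the fibroblast growth factor receptor of radial glia and astrocytes, and its log2 change was the farthest below 0 among the markers. It was at 43.1, 36.3 and 40.2 CPM in control A, B and C, against 32.1, 30.3 and 36.7 CPM in knockout A, B and C. The groups overlap narrowly, since knockout C lay just above control B, and the knockout was lower within each letter. Means were 39.9 ± 3.38 and 33.0 ± 3.27 CPM (SD, n = 3). The log2 change was -0.27 ± 0.12 (95% interval -0.53 to -0.013; unadjusted p = 0.0405, adjusted p = 0.708), and with the block the adjusted p was 0.306. Differences by letter were -0.42 for A, -0.26 for B and -0.13 for C. After adjustment over all genes this difference did not pass the test.

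The other receptors and the targets of FGF signalling gave no call. Of 15 tested genes on that list, 9 were higher and 6 lower, with a median of 0.058. Fgfr1 and Fgfr2 had log2 changes of 0.15 ± 0.12 (adjusted p = 0.85) and 0.058 ± 0.14 (adjusted p = 0.958). Dusp6, a phosphatase induced by ERK signalling, and Etv4, an ETS factor induced by FGF, had the smallest p-values of the list, with changes of -0.18 ± 0.11 (adjusted p = 0.787) and -0.21 ± 0.13 (adjusted p = 0.794).

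The connexin genes Gja1 and Gjb6 differed more between letters than between genotypes. Connexin 43, from Gja1, and connexin 30, from Gjb6, form the gap junctions that join astrocytes into a network; fibroblasts of the meninges also use Gja1, Gjb6 and Gjb2, the gene of connexin 26. Gjb2 lies 18600 bases from Gjb6 on the same chromosome (chr14:57098600-57104702 and chr14:57123303-57133611, both on the - strand). The 250 bases before the RefSeq start of these 3 genes (GRCm38.p6) are shown because the 3 genes moved together across libraries. Capitals mark matches to the motifs searched on both strands: the TATA box TATAAA, the GC box GGGCGG, the CCAAT box spelled CCAAT and the AP-1 motif spelled TGANTCA.
Gja1, chr10:56377050-56377299, + strand: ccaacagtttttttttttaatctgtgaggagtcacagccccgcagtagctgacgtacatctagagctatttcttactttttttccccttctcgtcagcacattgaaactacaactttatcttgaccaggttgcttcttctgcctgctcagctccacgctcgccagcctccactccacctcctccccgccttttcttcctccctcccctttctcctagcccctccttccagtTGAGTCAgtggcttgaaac
Gjb6, chr14:57133612-57133861, - strand: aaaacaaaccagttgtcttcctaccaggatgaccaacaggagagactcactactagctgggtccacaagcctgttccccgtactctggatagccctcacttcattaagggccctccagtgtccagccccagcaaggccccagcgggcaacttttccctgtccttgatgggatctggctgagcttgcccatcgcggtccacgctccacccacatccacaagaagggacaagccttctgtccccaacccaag
Gjb2, chr14:57104703-57104952, - strand: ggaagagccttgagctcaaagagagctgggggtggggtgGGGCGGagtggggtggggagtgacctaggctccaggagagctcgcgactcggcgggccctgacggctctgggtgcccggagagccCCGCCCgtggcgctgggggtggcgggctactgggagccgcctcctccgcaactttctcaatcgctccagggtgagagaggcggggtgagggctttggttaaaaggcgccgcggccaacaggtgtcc

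The 3 windows had little in common in these features. The Gja1 window holds TGANTCA, a form bound by AP-1 factors, once, 19 bases before the start, and 6.75% of 32851 promoter windows of this length hold it. The Gjb2 window holds GGGCGG, the GC box, at 211 and 126 bases before the start, as do 32.7% of windows at least once. The Gjb6 window holds none of the 4 motifs. TATAAA is found in 12.4% and CCAAT in 33.8% of windows, and in none of these 3. GC content was 50% for Gja1, 56.8% for Gjb6 and 69.2% for Gjb2, against a median of 52.4%, and the windows hold 6, 5 and 18 CpG sites.

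Gja1 (ENSMUSG00000050953; chr10:56377330-56402513, + strand) was at 21.1, 48.5 and 41.9 CPM in control A, B and C, against 24.1, 52.3 and 44.9 CPM in knockout A, B and C. Both letter A libraries were low, and each knockout was slightly above the control of its letter. The log2 change was 0.13 ± 0.45 without the block (95% interval -1.07 to 1.33; adjusted p = 0.975) and 0.13 ± 0.11 with it (-0.096 to 0.35; adjusted p = 0.713). Within groups, 3.45% of tested genes spread more than Gja1.

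Gjb6 (ENSMUSG00000040055) was at 0, 8.19 and 5.50 CPM in control A, B and C, against 0.309, 6.58 and 10.6 CPM in knockout A, B and C. The letter A libraries together held 3 Gjb6 reads and the other 4 libraries 293. The count of 0 in control A allows a level of up to 0.302 CPM (3 counts; counting error only). Only 0.0738% of tested genes spread more within groups. The log2 change was 0.38 ± 1.49 (95% interval -3.68 to 4.45; adjusted p = 0.979), and 0.39 ± 0.30 with the block (-0.21 to 0.99; adjusted p = 0.667). Leaving out both letter A libraries gave 0.34 ± 0.30 for Gjb6 (adjusted p = 0.838) and 0.11 ± 0.16 for Gja1 (adjusted p = 0.91), an alternative chosen after seeing the data.

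Meningeal fibroblast markers followed the same order of letters. Of 14 tested, 12 were lower in both letter A libraries than in the other 4 (85.7%), the exceptions being Pdgfra and Zic1; over all tested genes the share was 8.36%. Ptgds, the prostaglandin D synthase of the leptomeninges, was at 2.62, 295 and 165 CPM in control A, B and C, against 2.06, 319 and 356 CPM in knockout A, B and C. Slc6a13, a GABA and taurine transporter of the meninges, was at 0.201, 18.9 and 10.9 CPM in the controls, against 0.72, 18.3 and 23.4 CPM in the knockouts, in the same order. Collagen gene Col1a2 ran 4.23, 38.3 and 17.8 against 6.07, 37.8 and 36.4 CPM. Gjb2 was at 0.101, 2.85 and 1.32 CPM in the controls, against 0, 2.69 and 2.08 CPM in the knockouts, with 1 read in both letter A libraries together and 85 in the other 4. Of the markers, Aldh1a2 was at 0 in control A, and Foxc2 and Lum in knockout A. By genotype, 12 of the 14 were higher and 2 lower in the knockouts, with a median of 0.48 and 0 called with or without the block. This tilt rests mostly on letter C. The median knockout-minus-control difference was 0.051 for A, -0.023 for B and 0.96 for C, with 7, 9 and 2 of the 14 lower. The summed meningeal level in the lowest library of B and C was 2.5 times the highest of letter A. Among the astrocyte markers, 4 of the 10 (Aldh1l1, Gfap, Gja1 and Gjb6) were lowest in both letter A libraries, beside the same 8.36%. Their mean level in letters B and C was 1.1, 1.43, 2.07 and 50 times that in letter A, so that Aldh1l1 differed little. Without both letter A libraries, Aldh1l1 had a change of -0.12 ± 0.18 (adjusted p = 0.916) and Gfap of -0.073 ± 0.25 (adjusted p = 0.98). The part of meningeal RNA in the connexin values was not tested.

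**Figure D3:**
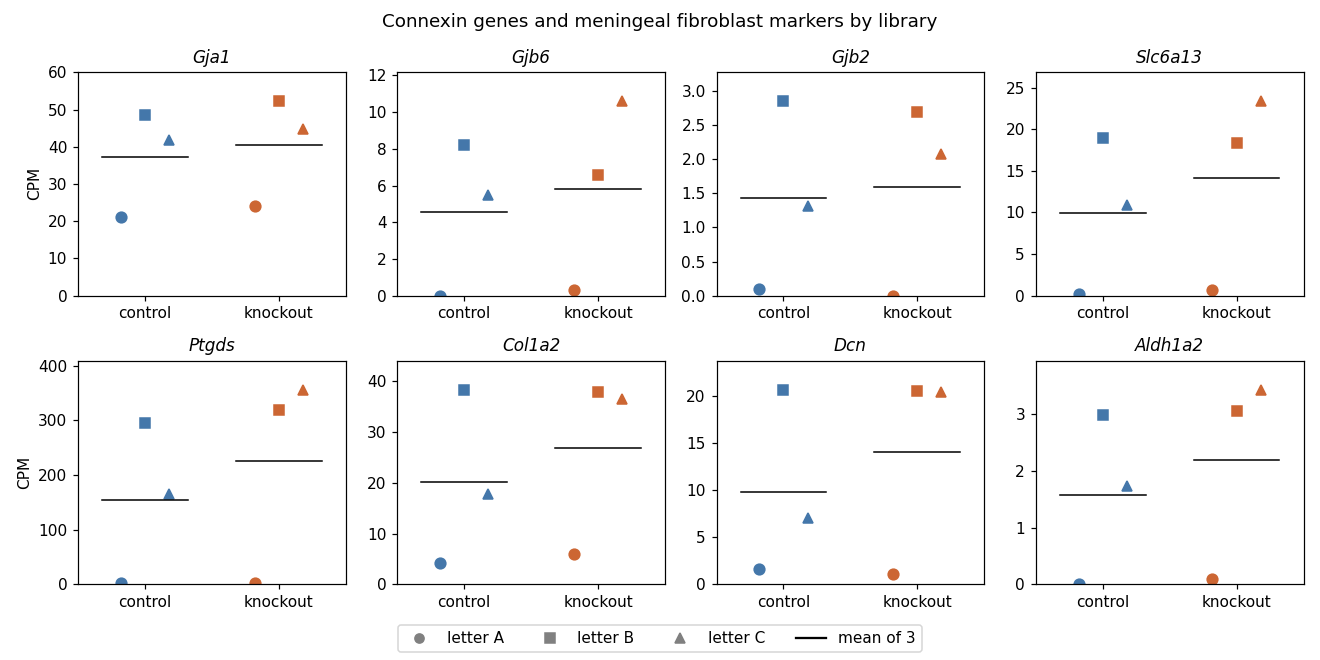
CPM (vertical axes, each starting at 0, with its own scale) of the connexin genes Gja1, Gjb6 and Gjb2 and of the meningeal fibroblast markers Slc6a13, Ptgds, Col1a2, Dcn and Aldh1a2 in the 3 control and 3 knockout libraries; each point is 1 library, its shape gives the letter, and lines are group means. Both letter A libraries are the lowest of the 6 in all 8 panels, in either genotype.

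The other gap junction genes gave no call. Of 21 on the list, which holds connexins, pannexins and the junction scaffold Tjp1, 8 had no read in any library and 9 were tested, 2 of them higher and 7 lower, with a median of -0.13. Gjd2, the connexin of electrical synapses between neurons, had the smallest p: it was at 27.2, 41.7 and 32.9 CPM in control A, B and C, against 28.3, 26.1 and 22.8 CPM in knockout A, B and C (log2 change -0.40 ± 0.15, adjusted p = 0.633). Gjc1, the gene of connexin 45, had a change of -0.25 ± 0.13 (adjusted p = 0.737).

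Aqp4 and Mlc1 mark the endfoot membrane. Aqp4 (ENSMUSG00000024411; chr18:15389496-15410982, - strand) encodes the water channel of endfeet. It was at 19.1, 19.1 and 23.4 CPM in control A, B and C, against 18.2, 19.7 and 16 CPM in knockout A, B and C. Control C was highest and knockout C lowest, so that the difference rests mostly on that letter: it was -0.069 for A, 0.041 for B and -0.54 for C. The fitted log2 change was -0.19 ± 0.15 (95% interval -0.50 to 0.12; adjusted p = 0.846).

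Mlc1 (ENSMUSG00000035805; chr15:88955884-88979007, - strand) encodes a membrane protein needed for volume regulation, mutated in megalencephalic leukoencephalopathy with cysts. It was at 83.4, 97.9 and 102 CPM in control A, B and C, against 98.1, 84.6 and 81.0 CPM in knockout A, B and C. The groups overlap fully, with the knockout higher in letter A and lower in B and C. The log2 change was -0.10 ± 0.11 (95% interval -0.34 to 0.13; adjusted p = 0.903). Of 12 tested endfoot and volume regulation partners, 6 were higher and 6 lower, with a median of -0.012 and 0 called. Kcnj10, the potassium channel of endfeet, had a change of 0.16 ± 0.16 (adjusted p = 0.897), and Hepacam, the partner of Mlc1, 0.11 ± 0.16 (adjusted p = 0.938). The smallest p-values of the list belonged to Cav1, the caveolin of vessel walls (-0.41 ± 0.19, adjusted p = 0.708), and Atp1b1, a sodium pump subunit (-0.17 ± 0.099, adjusted p = 0.792).

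Compared per kilobase of exon, the 10 markers spanned 21.4-fold in mean level. Exon length here joins all annotated exons of a gene, 10257 bases for Gja1. The transcripts present may be shorter, so the order depends on this choice. Aldoc (41.6 CPM per kb), Sox9 (40.5) and Mlc1 (32.6) were highest, and 7.84, 8.18 and 10.4% of tested genes exceeded them. S100b (7.04), Fgfr3 (5.09), Aldh1l1 (3.91), Gja1 (3.78) and Aqp4 (3.09) followed. Gfap (1.98) and Gjb6 (1.94) were lowest, with 69.7 and 70.1% of tested genes above them. The one clear gap in this order lies between Mlc1 and S100b, whose ranges over the 6 libraries do not overlap. The other neighbours overlap, except Aqp4 and Gfap, which lie just apart. Gjb6 spreads across the ranges of both, and Gja1 across that of Aqp4 and the upper part of that of Gfap.

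**Figure D4:**
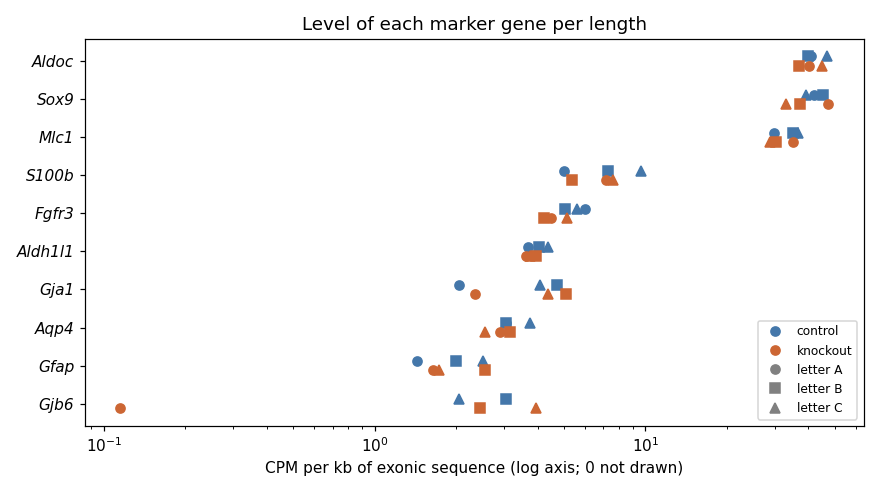
Level of each marker in CPM per kilobase of exon (log axis), 1 point per library, coloured by genotype and shaped by letter; the value of 0 for Gjb6 in control A is not drawn. Aldoc, Sox9 and Mlc1 lie above the other 7 markers in every library, and Gjb6 has the widest spread.

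The markers did not vary as 1 group across the 6 libraries. Over the 45 pairs of markers, the Pearson correlation of log2 CPM ranged from -0.56 (Sox9 with Gjb6) to 0.97 (Gja1 with Gjb6), with a median of 0.23, and 33 pairs were above 0. These are descriptions over 6 libraries that share depth and scaling, without a p. The genes whose pattern was most like the mean of the markers were Scamp5 (r = 0.992), Emc7 (0.989), Nudt10 (0.976), Fam53c (0.975) and Tmem208 (0.975); none of these is on the astrocyte lists used here. Aldh1l1, Aldoc and Fgfr3 were lower in the knockout within all 3 letters, and Gja1 higher.

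Further genes of the astrocyte lineage gave no call either. Of 39 tested, 14 were higher and 25 lower, with a median of -0.075 and 0 called with or without the block or by DESeq2. Their summed level was 4197 to 5002 CPM in controls and 4336 to 4647 CPM in knockouts. Within letters, the median knockout-minus-control difference was 0.026 for A, 0.037 for B and -0.22 for C, with 14, 18 and 30 of the 39 lower. The glutamate transporters Slc1a2 and Slc1a3 had log2 changes of 0.084 ± 0.15 and 0.045 ± 0.11, glutamine synthetase gene Glul 0.0039 ± 0.11, and Apoe, the main lipoprotein of astrocytes, 0.14 ± 0.11. The smallest p-values belonged to Slc6a11, a GABA transporter (-0.29 ± 0.12, adjusted p = 0.666), and Dio2, the deiodinase that activates thyroid hormone (-0.31 ± 0.16, adjusted p = 0.731).

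Genes of reactive astrocytes were sparse. Of 30, 17 had enough reads to be tested, 13 of them higher and 4 lower in the knockouts with a median of 0.15, and 0 were called. The smallest p-values belonged to Cp, the copper oxidase ceruloplasmin (0.83 ± 0.37, adjusted p = 0.708), and S1pr3, a sphingosine-1-phosphate receptor (0.54 ± 0.26, adjusted p = 0.712). Gfap, the best-known gene of reactive astrocytes, had a change near 0, as given above.

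Markers of other cells moved beside the astrocyte genes as follows. Of 17 radial glia and progenitor markers, 16 were higher and 1 lower in the knockouts, with a median of 0.14 and 0 called. Within letters, their median difference was 0.21 for A, 0.27 for B and 0.018 for C, with 1, 4 and 7 of the 17 lower. Some of these markers also belong to lists described above. Eomes, of intermediate progenitors, had the largest change (0.74 ± 0.24, adjusted p = 0.486). Of 12 tested oligodendrocyte lineage markers, 3 were higher and 9 lower, with a median of -0.12 and 0 called; the smallest p-values were those of Gpr17, of committed precursors (-0.50 ± 0.18, adjusted p = 0.553), and Olig1, a lineage factor (-0.27 ± 0.12, adjusted p = 0.703). Microglia and endothelial or mural markers were higher for 11 of 12 and 12 of 14, with medians of 0.19 and 0.20 and 0 called. Interneuron markers were higher for 11 of 12 (median 0.24), and Gad2, a GABA-synthesising enzyme, rose in the fit with the block (0.54 ± 0.11, adjusted p = 0.0191) and was not called without it (0.51 ± 0.16, adjusted p = 0.539). Of 14 excitatory neuron markers 9 were lower (median -0.091), and Rorb and Slc17a7 were among those that fell in the fit with the block (-0.63 ± 0.11 and -0.48 ± 0.11, adjusted p = 0.00115 and 0.0160). Without the block edgeR called neither (-0.64 ± 0.12 and -0.48 ± 0.12, adjusted p = 0.0942 and 0.309). DESeq2, also run without the block, called 1 of the 14 excitatory neuron markers. Choroid plexus and ependymal, hippocampal and non-cortical brain markers were higher for 5 of 8, 6 of 9 and 7 of 10, with medians of 0.12, 0.057 and 0.12 and 0 called. The part of these cell types in the astrocyte values was not tested.

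**Figure D5:**
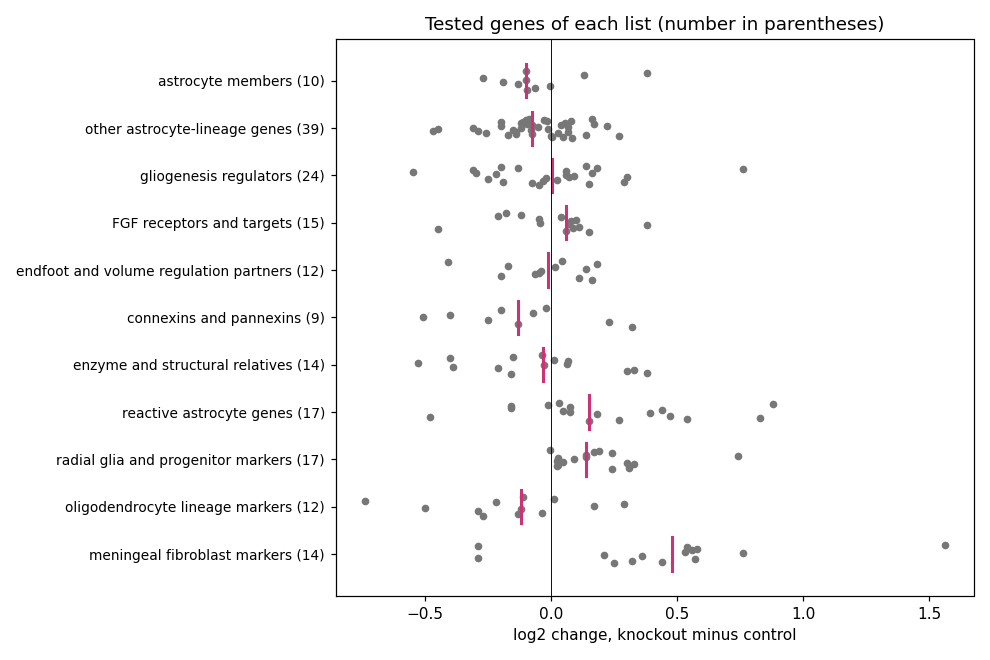
Log2 change, knockout minus control, of each tested gene (points) in the 10 astrocyte markers and 10 further gene lists (rows, with the number of tested genes), with the median of each list as a bar; the row of connexins and pannexins includes the scaffold Tjp1. The astrocyte markers have a median of -0.098 and the radial glia markers 0.14. Some genes stand in several rows.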

How the data were processed

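PolyA RNA of 6 cortices (3 control, 3 knockout) was sequenced from stranded libraries, per the labels' protocols. The authors deposited raw gene counts in STAR's layout. The submitters' processing notes name STAR 2.5.4 and the build GRCm38 (mm10). The annotation release is not given in the sources used here. The strand column with 18.6 times the reads of the other was used. The 4 summary lines of each table stayed out of library sizes. Reads matching no annotated exon on the used strand, antisense reads included, were 22.5 to 27.9% of mapped reads. Unmapped reads were 26.1 to 27.7% of all. The multi-mapping line was 0, so reads shared by near-identical genes are missing. Symbols, coordinates and exon lengths came from GENCODE M21, in which 52403 identifiers matched without version. Promoter windows came from RefSeq; 8 of the 10 genes had an entry.

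In R 4.3.3 with edgeR 4.0.16, genes kept by filterByExpr (14913) were compared between genotypes by a two-sided quasi-likelihood F-test (robust) with TMM factors of 0.979 to 1.04 and Benjamini-Hochberg adjustment over all tested genes. The SE is the size of the log2 change divided by the square root of F, and intervals are 95%. Log2 CPM used a prior count of 2. P-values without the block measure the spread between 3 samples a group, which the design text calls biological replicates. With the block they measure the spread left after differences between letters are removed. Alternatives were a block by letter, DESeq2 1.42.0, its size factors, no filter, unstranded counts and leaving out libraries. The labels do not say what the letters mark. Deviations of same-letter libraries from their group means correlated over all tested genes (r = 0.417, 0.342 and 0.211 for A, B and C). Between letters r was at most -0.031, but deviations from a group mean cancel within the group, which pulls these values down. On autosomes alone, r was 0.393, 0.242 and 0.182 within letters and at most 0.036 between them. The letters were taken as pairs on the same-letter values. No 2 libraries of a group agreed within counting noise. On simulated counts, false calls stayed under the nominal rate when genes followed the trend of dispersion, and exceeded it, more so with the block, when each gene kept its own estimated dispersion, so that calls near the threshold are to be read with care.

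The 10 genes and all gene lists were chosen with earlier results of these data known. Genes named were drawn from the 10, any list gene called with or without the block and otherwise the 2 smallest p-values of a list, the 5 genes with the most similar pattern at 10 CPM or more, and set relatives of the 10; meningeal examples were added after their values were seen. Some genes that this rule names are not reported here.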

Additional observations from a re-analysis of the deposited data

How the results depend on the processing

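With 15 alternatives for each of the 10 markers, 131 of 150 log2 changes kept their direction and 19 reversed, in 7 markers; the lowest adjusted p of any was 0.158 (Gjb6, in the blocked fit without letter B). Aldh1l1, Aqp4 and Fgfr3 kept their direction in all 15, Fgfr3 between -0.36 and -0.19. Leaving out libraries or letters moved Aldoc from -0.14 to 0.0093, Gfap from -0.23 to 0.28, S100b from -0.39 to 0.13, Sox9 from -0.25 to 0.009, Gja1 from -0.16 to 0.40, Gjb6 from -0.35 to 1.10 and Mlc1 from -0.27 to 0.012. Single libraries that reversed a marker when left out were knockout B and control C (Aldoc, S100b), knockout A, control B, control C and knockout C (Gfap), knockout C (Sox9), control A and knockout B (Gja1) and control A and knockout C (Gjb6). Gfap became 0.00067 with unstranded counts. The count of called markers was 0 in every alternative, and the replicate block changed no call among the 10.

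Over all genes, 5 were called in the fit of genotype alone. The count was 126 with the replicate block, 26 with DESeq2, 71 without the filter on low counts, 7 with DESeq2 size factors and 7 with unstranded counts; it ranged from 0 to 263 when libraries or letters were left out. The 0 came without both letter A libraries, an alternative chosen after seeing the data, in which 1071 genes had an unadjusted p under 0.05 in edgeR. The cause was not tested. How far depth, apart from the spread between libraries, limits each marker was not tested.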

Other observations

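Apart from the 10 markers, the genes at 10 CPM or more whose level followed the connexins most closely over the 6 libraries are given without a test. They were chosen after their values were seen. For Gja1 they were Cenpb, a centromere protein (r = 0.996), Avp, the vasopressin gene (0.988), Igf2 (0.987), Slc6a13 (0.984) and Col1a2 (0.982). For Gjb6 they were Slc6a13 (r = 0.998), Ehd4 (0.988), H19 (0.985), Akap8l (0.981) and Uaca (0.98). Igf2 and H19 are neighbouring imprinted genes, and Igf2 is abundant in the meninges and choroid plexus at this age. The summed level of choroid plexus and ependymal markers was 32.4, 189 and 68.5 CPM in control A, B and C, against 51, 55.3 and 77.3 CPM in knockout A, B and C. The letter A libraries were lowest by this sum too. Of the 8 tested markers on that list, Foxj1, a factor of ciliated ependymal cells, was lowest in both letter A libraries, and the other 7 were not. Ttr, the transthyretin gene of the choroid plexus, reached 144 CPM in control B and makes up most of the sum there.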
